A study of Homo sapiens with 9 samples.

Results

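The 48 genes described here work at the passage from G1 into S phase and in the copying of DNA: E2F factors, cyclin E, the proteins that license and fire replication origins, polymerases, clamp loaders, enzymes of nucleotide supply, histone chaperones and fork proteins. They were listed by gene symbol with no threshold on measured values, although the list was drawn up with earlier results of these data known. Each of the 48 had at least 1 probe set of its own among 19775 genes represented on the array. Of the 48 genes, 45 were tested and 3 lay below the signal floor, the median of each array, on all 9 arrays. The cells were HT-29, an established human colon adenocarcinoma line grown as a monolayer, so each group describes 1 line in culture. Cultures received 0, 5 or 10 µM 5-aza-deoxycytidine (5-Aza) for 5 days, with 3 biological replicates per dose, and the 0 µM cultures received the DMSO vehicle alone. RNA was measured on Affymetrix U133 Plus arrays, with 1 array for every culture. The study used these arrays to set gene lists from microarray and RNA-Seq beside each other. The comparisons below ask which replication genes changed at each dose and between the doses.

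In resting and early G1 cells the retinoblastoma protein holds E2F transcription factors in check. Cyclin E with its kinase partner helps to release E2F, whose targets include most genes of DNA replication. Before S phase, ORC, CDC6 and CDT1 load the ring-shaped MCM helicase on origins. CDC45 and the GINS complex then join the ring to form the active helicase, and polymerases, the PCNA clamp and nucleotide enzymes do the copying. 5-Aza is a cytidine analog that is built into DNA as it is copied and traps DNA methyltransferases there. It therefore acts on cells that pass through S phase.

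The arrays differed between doses in measures other than these genes. The log2 difference between the 3′ and the 5′ probe set of actin, a control that grows with RNA degradation or incomplete copying, ranged from 1.91 to 2.29 at 0 µM, from 2.49 to 2.69 at 5 µM and from 2.84 to 3.16 at 10 µM (exact permutation test over 1680 arrangements, two-sided, p = 0.00357, the smallest it allows). The 18S rRNA 5′ signal was 13.45 and 13.60 on 10 µM replicates 2 and 3, against 11.77 to 12.56 on the other 7 arrays. DNMT1, the maintenance methyltransferase that 5-Aza traps, had a log2 fold change of 0.27 ± 0.10 (SE, adjusted p = 0.0649) at 5 µM and 0.67 ± 0.10 (adjusted p = 0.00199) at 10 µM against 0 µM. Of 12 colon epithelial markers, 10 were above the floor on every array, while CDX1 and CDX2, transcription factors of the gut, lay below it on all 9. The summed linear signal of the 12 was 99300 to 103000 at 0 µM, 72700 to 81200 at 5 µM and 65600 to 74600 at 10 µM. By adjusted p 5 of the 10 were lower and 2 higher at each dose against 0 µM. Of all tested genes 13.3% were lower at each dose, and 20.2% and 19.8% were higher. The summed linear signal of 7 fibroblast markers was 291 to 393 at 0 µM, 1050 to 1100 at 5 µM and 635 to 764 at 10 µM, with COL1A1 and LUM above the floor on every array and COL3A1, PDGFRB and THY1 on none. Of 5 blood cell markers LYZ and CD14 were above the floor on every array and PTPRC, the general leukocyte marker, on none, with sums of 12900 to 13700, 8910 to 10100 and 10700 to 11800 by dose. Of 4 endothelial markers PECAM1 was above the floor on every array and VWF, CDH5 and KDR on none, with sums of 89.6 to 98.0, 102 to 158 and 75.7 to 101. The part of other cells in the results below was not tested.

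At 5 µM the replication genes were higher than at 0 µM as a group. Among those that reached the floor on every vehicle array, ORC6, CDT1, DTL and CCNE1 had the largest changes. A gene was called when its adjusted p (limma, Benjamini-Hochberg over 11756 genes) was at most 0.05 and it changed more than 2-fold. Of the 45 tested members 15 were called higher and 0 lower, where 8.59% of all tested genes were called higher and 1.32% lower. By adjusted p alone 33 members were higher and 0 lower, where 20.2% of all tested genes were higher and 13.3% lower. The median log2 fold change of the members was 0.79, and that of all tested genes was 0.04. All 3 arrays at 5 µM lay above all 3 arrays at 0 µM for 38 members, which held for 31.0% of all tested genes. UNG, a glycosylase that removes uracil from DNA, was the 1 tested member with a negative log2 fold change, of -0.12 ± 0.11 (SE, adjusted p = 0.436). With equal array medians the fold changes of POLA1, PRIM1, RFC2, CHAF1A and TIPIN were negative too, after quantile normalization those of POLA1, PRIM1 and RFC2, and none of these 5 genes had passed the test.

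At 10 µM against 0 µM, 24 of the 45 members were called higher and 0 lower. Among all tested genes 6.08% were called higher and 1.50% lower. By adjusted p alone 33 members were higher and 0 lower, beside 19.8% and 13.3% of all tested genes. The median log2 fold change of the members was 1.06, against 0.05 for all tested genes, and the groups were apart for 35 members, which held for 25.5% of all tested genes in that direction. Across both comparisons 12 members were called at both doses, 3 at 5 µM alone (CDC25A, CDC6 and MCM10) and 12 at 10 µM alone, which does not by itself show that the doses differed. After quantile normalization CDC6 and RFC2 had negative changes at 10 µM, and with equal array medians GMNN, RPA2, TK1, UNG and TIPIN did as well, none of which had passed the test at that dose. The 8 members whose tested probe set passed the adjusted p at neither dose were E2F2, POLA1, RFC2, RFC3, RFC5, RPA2, UNG and TIPIN.

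The floor was the median of each array, and 7 members (E2F8, CCNE2, CDC25A, MCM10, CDC45, GINS3 and CHAF1B) did not reach it on all 3 vehicle arrays, so they were tested only because they did at a treated dose. Among the other 38 members 9 were called higher at 5 µM and 19 at 10 µM, where 4.50% and 3.12% of the 10879 genes that reached the floor in the vehicle were called. The scaling between arrays mattered as well. Of all genes called at 5 µM, 86.7% were higher as deposited, 78.6% after quantile normalization and 61.9% with equal array medians, and at 10 µM these shares were 80.2%, 68.9% and 49.1%. Equal medians moved the median change of all genes to -0.22 at 5 µM and -0.23 at 10 µM. The members' median, which carries the same shift, was then 0.53 at 5 µM and 0.79 at 10 µM. After quantile normalization it was 0.62 and 0.92, with 11 and 18 members called higher. Under equal medians 9 members were called higher at 5 µM and 14 at 10 µM, and 0 were called lower. When limma was given the actin difference as a covariate, the members' median was 0.82 at 5 µM with 10 called. At 10 µM it was 1.16, with 0 of 45 members and 0 of 11756 genes past the adjusted p, 19 members and 997 genes at an unadjusted p under 0.05, and a median standard error of 0.47 in place of 0.16. Without 10 µM replicates 2 and 3, whose 18S signal stood apart, 15 members were called at 5 µM and 19 at 10 µM, with 1 array left at 10 µM that was assumed to vary like the others. The actin difference grew with dose, and the part of RNA quality in the fold changes cannot be told apart from that of the dose in that fit. In bulk RNA, a larger share of cells in S phase and more RNA of these genes per cell cannot be told apart either.

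Some calls depended on the processing. At 5 µM, CDC6, E2F8, GINS3 and MCM10 were not called after quantile normalization, GINS1 and RRM2 in addition with equal array medians, and CDC25A, CDC45 and E2F8 under the methods' t-test. With the actin covariate CDC25A, CDC45, CDC6, DTL, E2F8 and FEN1 were not called at 5 µM. At 10 µM, CCNE1, E2F8, GINS2, POLD1, RRM1 and RRM2 were not called after quantile normalization, and FEN1, GINS3, MCM4 and MCM7 in addition with equal array medians. The methods' t-test did not call CDC45, E2F8, FEN1, GINS2, RRM1 and RRM2 at 10 µM. With the mean of the probe sets FEN1, MCM4, RRM1 and RRM2 were not called at 10 µM, and CCNE1, DSCC1 and GINS2 were no longer tested. Without 10 µM replicates 2 and 3 some changes at 10 µM were under the fold threshold. They were 0.98 for E2F8, 0.84 for FEN1, 0.59 for GINS2, 0.99 for MCM4, 0.7 for RRM1 and 0.86 for RRM2.

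**Figure D1:**
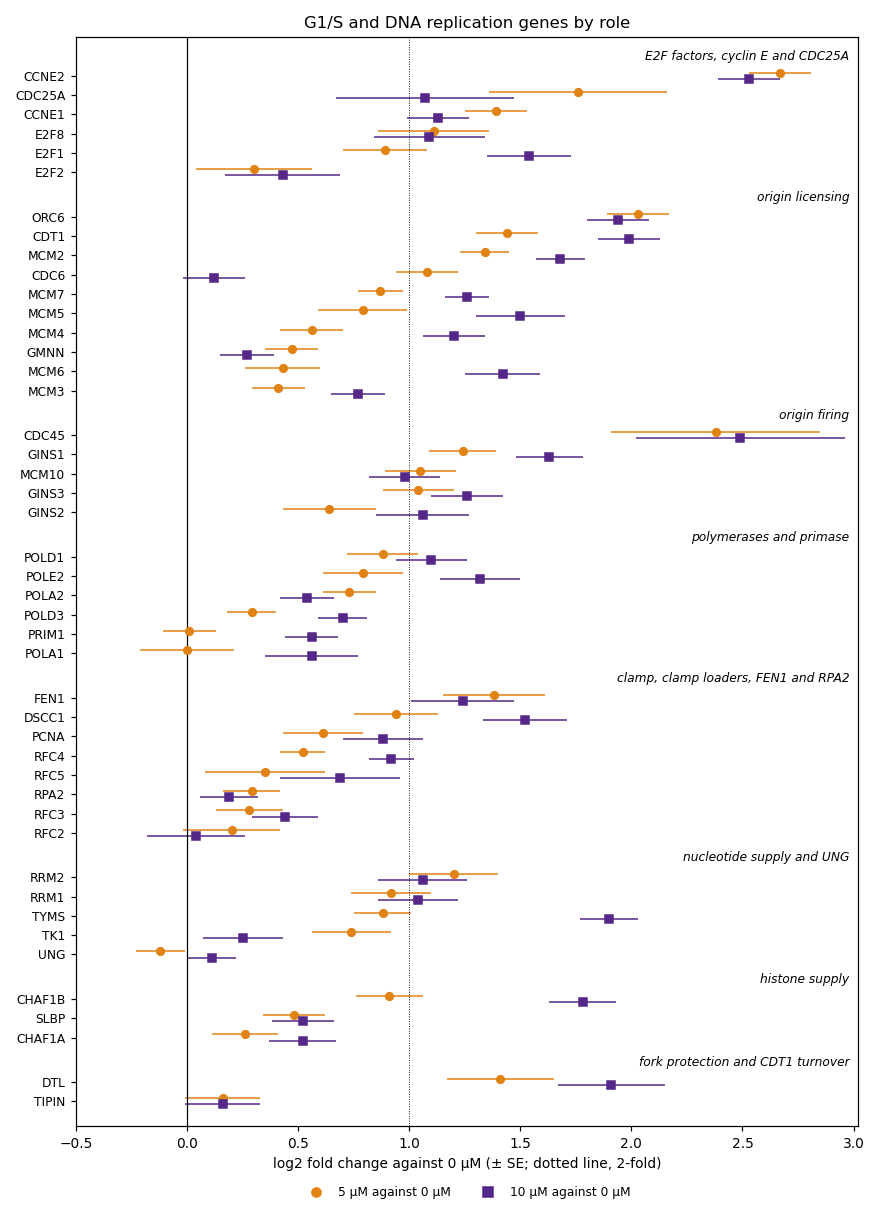
Log2 fold change against 0 µM (x axis, ± SE) of the 45 tested genes, grouped by role, at 5 µM (circles) and 10 µM (squares). The dotted line is 2-fold, and under the deposited scaling 44 of 45 circles and 45 of 45 squares lie at 0 or above, fewer under the other scalings named above.

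The promoters of these genes carried the recognition letters of E2F more often than promoters in general. The windows were taken from RefSeq (GRCh38.p14) and ran from 250 bases before to 50 bases after the gene start. A total of 40 of the 48 genes matched an entry. The motifs TTTCCCGC, TTTGGCGC, TTTCGCGC and TTTGCCGC were searched on both strands, and matches were allowed to overlap. At least 1 match was present in 20 of the 40 member promoters (50%), in 508 of 9613 promoters of tested genes (5.28%) and in 908 of 27305 promoters in all (3.33%). In the lists described below the share was 25.6% for other replication genes, 16.7% for other G1/S regulators and 10.7% for G2/M genes. Without the first T, 29 member promoters had a match (72.5%), compared with 20.3% of promoters of tested genes and 13.1% of all promoters. The CCAAT letters, on either strand, were present in 57.5% of member promoters and 35.7% of all promoters. They were in 78.6% of G2/M, 56.4% of other replication and 33.3% of other G1/S promoters, so they were not particular to the 48 genes. Of the 27 matches 20 began within 60 bases of the gene start. The members were chosen for roles that E2F is known to control, so the excess describes the list and says nothing of the drug. The median observed-to-expected CpG ratio was 0.95 in the member promoters and 0.84 in those of tested genes. It was 0.91 for other replication genes, 0.87 for other G1/S regulators and 0.94 for G2/M genes.

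**Figure D2:**
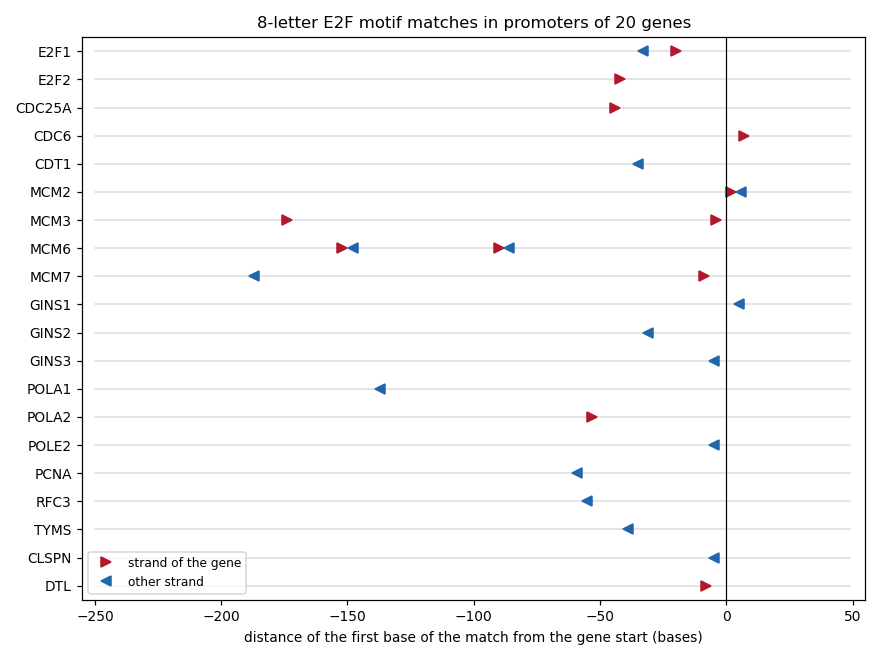
Distance in bases of the first base of each 8-letter match from the gene start (x axis) in the 20 promoters with a match (rows, with the searched window as a grey line). Arrowheads to the right are on the strand of the gene and arrowheads to the left on the other strand, and 20 of the 27 matches lie within 60 bases of the start.

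Of the 22 called genes with a promoter entry 13 had a match, and the stretch around the first match is shown for each of the 13, 5′ to 3′ on the strand of the gene, with the matched letters in capitals, so that the sites can be read beside the values of the genes.
E2F1: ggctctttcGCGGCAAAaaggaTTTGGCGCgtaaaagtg
CDC25A: tggattccgTTTGGCGCcaactagga
CDC6: ccattcggaTTTGGCGCgagcgcggc
CDT1: agggcgcccGCGGGAAAtttggcggg
MCM2: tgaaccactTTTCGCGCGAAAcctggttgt
MCM6: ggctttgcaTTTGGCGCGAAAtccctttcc
MCM7: gctcggaccGCGGGAAAcccggcgcc
GINS1: ctttgttcgGCGCCAAAgcgcggagc
GINS2: ctcgccgtgGCGGGAAAacggcggcc
GINS3: tccccgggcGCGGGAAAcgagtttca
POLE2: gcggcggtgGCGCCAAAtcgcaaata
TYMS: gggacggccGCGGGAAAaggcgcgcg
DTL: tgacgtcagTTTGGCGCggagtttgg
In GRCh38.p14 these stretches lie at chr20:33686389-33686427 for E2F1, chr3:48188445-48188470 for CDC25A, chr17:40287877-40287902 for CDC6, chr16:88803745-88803770 for CDT1, chr3:127598404-127598433 for MCM2, chr2:135876575-135876604 for MCM6, chr7:100101568-100101593 for MCM7, chr20:25407669-25407694 for GINS1, chr16:85688969-85688994 for GINS2, chr16:58392457-58392482 for GINS3, chr14:49688203-49688228 for POLE2, chr18:657605-657630 for TYMS and chr1:212035731-212035756 for DTL, and the gene is on the minus strand for E2F1, CDC25A, MCM6, MCM7, GINS2 and POLE2.
The windows of MCM2 and MCM6 each hold a pair of matches that overlap on opposite strands, which gives an unbroken run of 12 capitals. Matches were scored by letters alone and are not known to be bound in HT-29 cells. Among the 38 tested members with a promoter entry, the 19 with a match had a median log2 fold change of 0.87 at 5 µM and 1.26 at 10 µM. The 19 without a match, CCNE1, ORC6, CDC45, FEN1, RRM1 and RRM2 among them, had medians of 0.74 and 0.92. The ranges of these sets overlapped widely at both doses, with 0.12 to 1.99 for genes with a match and 0.04 to 2.49 for genes without at 10 µM.

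The whole windows of 3 genes are shown because their dose patterns differ, as described below: CDC6 was high at 5 µM only, MCM6 mainly at 10 µM, and TYMS at both doses with a further step between them. Capitals again mark the E2F letters. They lie at chr17:40287629-40287928 (plus strand) for CDC6, chr2:135876394-135876693 (minus strand) for MCM6 and chr18:657403-657702 (plus strand) for TYMS, in GRCh38.p14.
CDC6: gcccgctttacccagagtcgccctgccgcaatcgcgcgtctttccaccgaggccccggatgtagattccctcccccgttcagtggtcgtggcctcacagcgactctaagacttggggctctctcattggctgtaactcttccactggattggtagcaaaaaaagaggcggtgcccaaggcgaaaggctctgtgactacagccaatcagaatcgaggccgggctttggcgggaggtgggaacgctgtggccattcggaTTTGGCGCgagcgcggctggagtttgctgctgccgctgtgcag
MCM6: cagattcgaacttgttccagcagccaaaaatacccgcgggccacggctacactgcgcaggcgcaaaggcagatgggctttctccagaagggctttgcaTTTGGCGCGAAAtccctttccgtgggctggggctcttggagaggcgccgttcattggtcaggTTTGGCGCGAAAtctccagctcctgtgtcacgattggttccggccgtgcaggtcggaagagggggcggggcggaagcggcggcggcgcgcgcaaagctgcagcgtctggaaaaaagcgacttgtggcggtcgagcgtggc
TYMS: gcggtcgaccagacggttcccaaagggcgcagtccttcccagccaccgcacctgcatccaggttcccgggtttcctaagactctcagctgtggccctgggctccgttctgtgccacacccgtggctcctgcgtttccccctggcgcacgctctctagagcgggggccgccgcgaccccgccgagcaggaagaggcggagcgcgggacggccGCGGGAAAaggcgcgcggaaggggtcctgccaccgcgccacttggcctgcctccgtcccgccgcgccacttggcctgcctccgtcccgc
All 3 windows hold at least 1 match, MCM6 with 4 and the others with 1 each. The 3 genes were taken from the called genes with a match, so this cannot bear on whether the letters go with a dose pattern.

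Of the 6 genes of E2F factors, cyclin E and CDC25A, 4 were called higher at 5 µM and 4 at 10 µM. The shares over all tested genes were 8.59% and 6.08%. CCNE2, which encodes cyclin E2, had log2 signals of 5.02, 5.25 and 5.57 at 0 µM, 7.94, 7.98 and 7.92 at 5 µM, and 7.92, 7.75 and 7.77 at 10 µM. The treated arrays were all far above the vehicle arrays, 1 of which was below the floor. Its log2 fold change was 2.67 ± 0.14 (SE, adjusted p = 6.81e-06) at 5 µM and 2.53 ± 0.14 (adjusted p = 4.58e-05) at 10 µM. CCNE1, which encodes the other cyclin E, gave 6.44, 6.18 and 6.72 at 0 µM, 7.81, 7.88 and 7.84 at 5 µM, and 7.60, 7.46 and 7.69 at 10 µM. It was thus apart from the vehicle at both doses, by 1.39 ± 0.14 (adjusted p = 0.000175) and 1.13 ± 0.14 (adjusted p = 0.000818). Without 0 µM replicate 2 its change at 10 µM was 1.00, under the fold threshold. E2F1, an activator of replication genes, gave 5.38, 5.63 and 5.35 at 0 µM, 6.34, 6.61 and 6.09 at 5 µM, and 7.12, 7.24 and 6.61 at 10 µM. Its groups did not overlap at either dose, with changes of 0.89 ± 0.19 (adjusted p = 0.0078) and 1.54 ± 0.19 (adjusted p = 0.000853). CDC25A, the phosphatase that activates the cyclin E kinase, gave 5.23, 3.32 and 4.60 at 0 µM, 5.98, 6.16 and 6.27 at 5 µM, and 5.32, 5.38 and 5.66 at 10 µM. Only 1 vehicle array and 2 arrays at 10 µM reached the floor. The change of CDC25A was 1.76 ± 0.40 (adjusted p = 0.0101) at 5 µM and 1.07 ± 0.40 (adjusted p = 0.0685) at 10 µM, and the call at 5 µM was lost under the methods' t-test. E2F8, a repressor of the family, was higher by 1.11 ± 0.25 (adjusted p = 0.00997) at 5 µM and 1.09 ± 0.25 (adjusted p = 0.0123) at 10 µM. Without 0 µM replicate 3 these were 0.82 and 0.80, and without 5 µM replicate 3 the first was 0.97, all without a call. E2F2, the other activator here, changed least, by 0.30 ± 0.26 (adjusted p = 0.424) at 5 µM.

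Among the genes of origin licensing, 4 of 10 tested were called higher at 5 µM and 7 at 10 µM, beside 8.59% and 6.08% of all tested genes. ORC6, a subunit of the origin recognition complex, gave 8.28, 8.26 and 8.31 at 0 µM, 10.27, 10.17 and 10.48 at 5 µM, and 10.44, 9.95 and 10.28 at 10 µM. The vehicle arrays lay within 0.05 of each other and well below the others. The change was 2.03 ± 0.14 (adjusted p = 2.56e-05) at 5 µM and 1.94 ± 0.14 (adjusted p = 9.69e-05) at 10 µM. CDT1, which brings the MCM helicase to origins, gave 5.57, 5.74 and 5.46 at 0 µM, 6.79, 7.09 and 7.20 at 5 µM, and 7.55, 7.43 and 7.75 at 10 µM. No array of CDT1 overlapped with those of another dose, and its changes were 1.44 ± 0.14 (adjusted p = 0.000156) and 1.99 ± 0.14 (adjusted p = 9.55e-05) against 0 µM. The probe sets of ORC6 and CDT1 are of the _x_at kind, which can also bind other transcripts. GMNN, which encodes the CDT1 inhibitor geminin, rose by 0.47 ± 0.12 (adjusted p = 0.0156) at 5 µM and had 0.27 ± 0.12 (adjusted p = 0.112) at 10 µM. ORC1, the largest subunit of the complex, had signals of 0.85 to 4.74 over the 9 arrays, all below the floor, and was not tested.

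CDC6, the partner of CDT1 in loading the helicase, followed another course. Its log2 signals were 7.76, 7.53 and 7.61 at 0 µM, 8.77, 8.48 and 8.90 at 5 µM, and 7.59, 7.89 and 7.78 at 10 µM. The 5 µM arrays stood above all others, and those at 10 µM overlapped with the vehicle. The change was 1.08 ± 0.14 (adjusted p = 0.000571) at 5 µM and 0.12 ± 0.14 (adjusted p = 0.526) at 10 µM against 0 µM, and -0.96 ± 0.14 (adjusted p = 0.00502) at 10 µM against 5 µM. Its other probe set gave differences of 1.20, 0.20 and -1.0 for the same comparisons. The change at 5 µM was under the fold threshold without 5 µM replicate 3 (0.99), after quantile normalization (0.96) and with equal array medians (0.82), and it was not called with the actin covariate.

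All 6 subunits of the MCM helicase ring were tested. MCM2 gave 6.81, 6.81 and 6.79 at 0 µM, 8.36, 8.09 and 7.97 at 5 µM, and 8.55, 8.44 and 8.46 at 10 µM. It was the 1 subunit called at both doses, at 1.34 ± 0.11 (adjusted p = 6.81e-05) and 1.68 ± 0.11 (adjusted p = 8.3e-05). MCM5 gave 5.58, 6.09 and 5.71 at 0 µM, 6.55, 6.56 and 6.65 at 5 µM, and 7.70, 7.22 and 6.97 at 10 µM. Its doses did not overlap, and the change was 0.79 ± 0.20 (adjusted p = 0.0149) at 5 µM and 1.50 ± 0.20 (adjusted p = 0.00106) at 10 µM. MCM6 gave 9.22, 9.10 and 8.62 at 0 µM, 9.40, 9.60 and 9.23 at 5 µM, and 10.24, 10.54 and 10.42 at 10 µM. The 5 µM arrays of MCM6 began just above the highest vehicle array, while those at 10 µM were well above both, with changes of 0.43 ± 0.17 (adjusted p = 0.0877) and 1.42 ± 0.17 (adjusted p = 0.000808). MCM7 changed by 0.87 ± 0.10 (adjusted p = 0.000459) and 1.26 ± 0.10 (adjusted p = 0.000163). MCM4 changed by 0.56 ± 0.14 (adjusted p = 0.0149) and 1.20 ± 0.14 (adjusted p = 0.000632). MCM3 moved least of the licensing genes at 5 µM, by 0.41 ± 0.12 (adjusted p = 0.0271), and by 0.77 ± 0.12 (adjusted p = 0.00216) at 10 µM. The 5 subunits other than MCM6 thus passed the adjusted p at 5 µM and all 6 passed it at 10 µM. Among all tested genes 20.2% and 19.8% were higher by adjusted p.

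**Figure D3:**
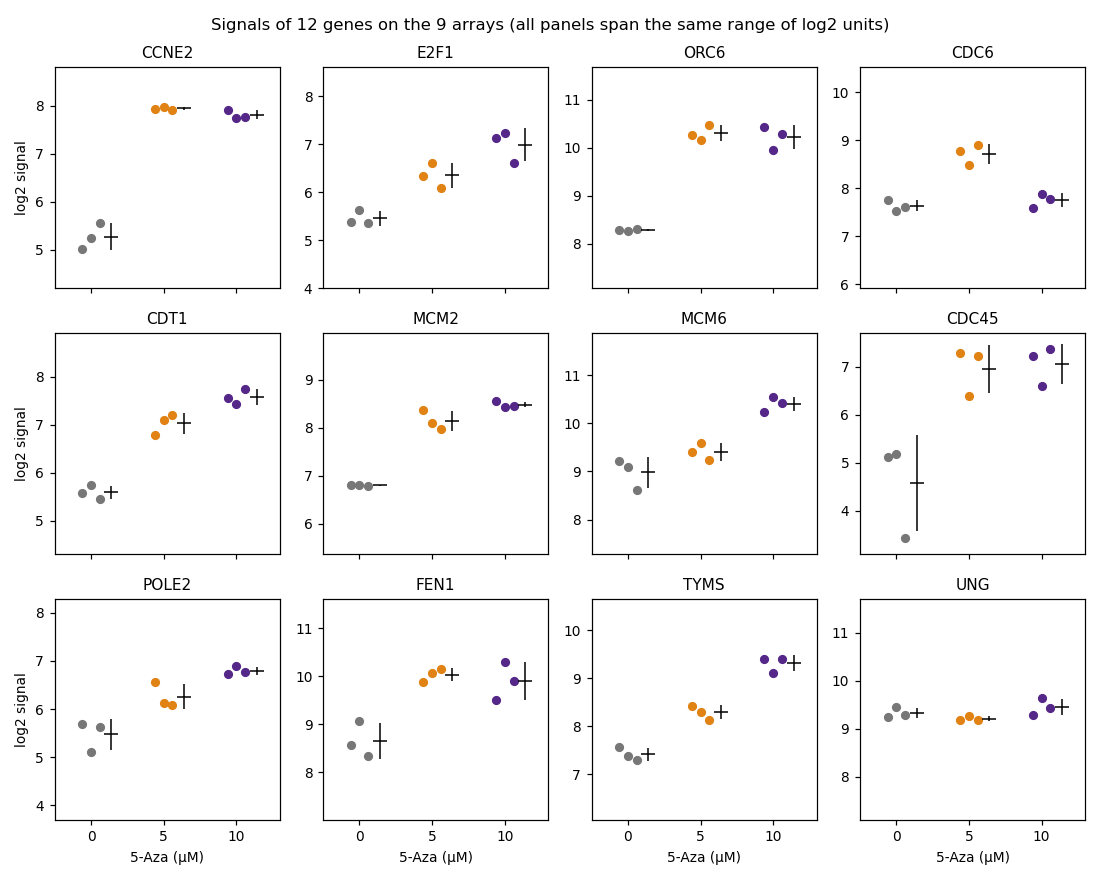
Log2 signal (y axis) of 12 genes on each array at 0, 5 and 10 µM 5-Aza (x axis), with points for the 9 arrays and a bar for mean ± SD of 3 arrays. CCNE2 and ORC6 are high at both treated doses, CDC6 at 5 µM, and MCM6 and TYMS step up again at 10 µM, while the 3 groups of UNG overlap except that its 10 µM arrays lie above those at 5 µM.

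Of the 5 tested genes of origin firing, 4 were called higher at 5 µM and 4 at 10 µM, beside 8.59% and 6.08% of all tested genes. CDC45, which completes the active helicase, gave 5.11, 5.18 and 3.42 at 0 µM, 7.28, 6.38 and 7.21 at 5 µM, and 7.22, 6.59 and 7.37 at 10 µM. Treated and vehicle arrays were apart, but the vehicle spread was wide, with an SD of 1.00 and 1 array at the floor or above. The change was 2.38 ± 0.47 (adjusted p = 0.00539) at 5 µM and 2.49 ± 0.47 (adjusted p = 0.00527) at 10 µM, and both calls were lost under the methods' t-test. GINS1, a subunit of the GINS complex, gave 6.78, 6.64 and 6.59 at 0 µM, 8.05, 7.94 and 7.75 at 5 µM, and 8.36, 8.0 and 8.54 at 10 µM. Its changes were 1.24 ± 0.15 (adjusted p = 0.000473) and 1.63 ± 0.15 (adjusted p = 0.000259), with the arrays of both doses above the vehicle. GINS3 gave 4.99, 5.15 and 4.53 at 0 µM, 5.94, 5.96 and 5.88 at 5 µM, and 6.01, 6.30 and 6.13 at 10 µM. It was higher by 1.04 ± 0.16 (adjusted p = 0.0015) and 1.26 ± 0.16 (adjusted p = 0.000883), with 1 vehicle array at the floor or above. Without 0 µM replicate 3 the change of GINS3 at 5 µM was 0.86 and not called. GINS2 gave 6.17, 6.51 and 6.48 at 0 µM, 7.08, 7.24 and 6.78 at 5 µM, and 6.97, 7.69 and 7.69 at 10 µM. It changed least at 5 µM, by 0.64 ± 0.21 (adjusted p = 0.046), and by 1.06 ± 0.21 (adjusted p = 0.00697) at 10 µM. The GINS2 call at 10 µM rested on single arrays, since it was 0.95 without 0 µM replicate 1 and 0.94 without 10 µM replicate 2 or 3. MCM10, which helps to start the assembled helicase, did not reach the floor on any of the 3 vehicle arrays, so its fold is a lower limit that sets each dim vehicle value at the floor. It was at least 1.76-fold higher at 5 µM (adjusted p = 0.00153) and at least 1.68-fold higher at 10 µM (adjusted p = 0.00287). The limit at 5 µM was under 2-fold, so the MCM10 call at that dose rested on measured vehicle values below the floor. The measured change at 5 µM was 1.05 ± 0.16, and 0.94 without 0 µM replicate 3 and 0.98 without 5 µM replicate 3. GINS4 lay below the floor on all 9 arrays.

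None of 6 polymerase and primase genes was called at 5 µM, where 3 passed the adjusted p. At 10 µM, 2 were called and 5 passed it. Over all tested genes 8.59% and 6.08% were called higher, and 20.2% and 19.8% were higher by adjusted p. POLE2, a subunit of the leading-strand polymerase epsilon, gave 5.69, 5.10 and 5.62 at 0 µM, 6.57, 6.12 and 6.09 at 5 µM, and 6.72, 6.89 and 6.77 at 10 µM. Its doses did not overlap, and the change was 0.79 ± 0.18 (adjusted p = 0.011) at 5 µM and 1.32 ± 0.18 (adjusted p = 0.00141) at 10 µM. POLD1, the catalytic subunit of polymerase delta, gave 7.02, 7.20 and 7.49 at 0 µM, 8.12, 7.96 and 8.25 at 5 µM, and 8.53, 8.10 and 8.38 at 10 µM. The treated arrays were above the vehicle, by 0.88 ± 0.16 (adjusted p = 0.00363) and 1.10 ± 0.16 (adjusted p = 0.00167), and the second was 0.99 without 0 µM replicate 1. POLA1, the catalytic subunit of polymerase alpha, changed by 0.00 ± 0.21 (adjusted p = 0.992) at 5 µM and 0.56 ± 0.21 (adjusted p = 0.0689) at 10 µM. PRIM1, the primase subunit that makes the RNA primer, had 0.01 ± 0.12 (adjusted p = 0.948) at 5 µM and rose by 0.56 ± 0.12 (adjusted p = 0.00895) at 10 µM. Its 10 µM arrays, at 7.32, 7.34 and 7.34, lay above the 5 µM arrays, at 6.53, 6.87 and 6.96. POLA2, the regulatory subunit of polymerase alpha, rose by 0.73 ± 0.12 (adjusted p = 0.00232) at 5 µM and 0.54 ± 0.12 (adjusted p = 0.011) at 10 µM. POLD3, an accessory subunit of polymerase delta, had 0.29 ± 0.11 (adjusted p = 0.0676) and rose by 0.70 ± 0.11 (adjusted p = 0.00213).

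Among the 8 genes of the clamp, clamp loaders, FEN1 and RPA2, 1 was called at 5 µM and 2 at 10 µM. That is 12.5% at 5 µM, near the 8.59% of all tested genes, and 25.0% at 10 µM, beside 6.08%. FEN1, the nuclease that trims Okazaki fragments, gave 8.57, 9.07 and 8.34 at 0 µM, 9.89, 10.07 and 10.15 at 5 µM, and 9.50, 10.29 and 9.91 at 10 µM. Both doses lay above the vehicle, by 1.38 ± 0.23 (adjusted p = 0.00254) and 1.24 ± 0.23 (adjusted p = 0.0051). The FEN1 call at 10 µM was lost with the mean of its probe sets, with equal array medians, under the methods' t-test, with the actin covariate and without 10 µM replicates 2 and 3 (0.84). DSCC1, part of a clamp loader that also serves sister chromatid cohesion, gave 7.67, 7.20 and 7.17 at 0 µM, 8.11, 8.52 and 8.23 at 5 µM, and 8.67, 8.76 and 9.17 at 10 µM. No dose overlapped with another, and its changes were 0.94 ± 0.19 (adjusted p = 0.00561) and 1.52 ± 0.19 (adjusted p = 0.000818). PCNA, the sliding clamp itself, rose by 0.61 ± 0.18 (adjusted p = 0.0296) and 0.88 ± 0.18 (adjusted p = 0.0075), under 2-fold at both doses. Of the clamp loader subunits RFC4 rose by 0.52 ± 0.10 (adjusted p = 0.00565) and 0.92 ± 0.10 (adjusted p = 0.000564). The tested probe sets of RFC2, RFC3 and RFC5 did not pass the test. RFC2 had the smallest change of the group, of 0.20 ± 0.22 (adjusted p = 0.513) at 5 µM. Other probe sets of RFC5 and RFC3 that reached the floor lay above the vehicle on all arrays of both doses. They differed by 0.70 and 0.95 and by 0.53 and 0.82 for RFC5, and by 0.45 and 0.54 for RFC3. The other one of RFC2 differed by 0.17 and 0.05, with overlap. RPA2, a subunit of the protein that covers single-stranded DNA, had 0.29 ± 0.13 (adjusted p = 0.111) at 5 µM and 0.19 ± 0.13 (adjusted p = 0.277) at 10 µM.

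In nucleotide supply, TYMS stood out by its second step between the doses. TYMS, thymidylate synthase, which makes the thymidine nucleotide from its uridine form, gave 7.56, 7.38 and 7.30 at 0 µM, 8.43, 8.30 and 8.14 at 5 µM, and 9.41, 9.12 and 9.41 at 10 µM. The 3 doses were fully apart, and the change was 0.88 ± 0.13 (adjusted p = 0.00115) at 5 µM and 1.90 ± 0.13 (adjusted p = 8.3e-05) at 10 µM. RRM2, the S-phase subunit of ribonucleotide reductase, gave 8.07, 7.70 and 7.36 at 0 µM, 8.89, 8.90 and 8.94 at 5 µM, and 8.57, 9.11 and 8.64 at 10 µM. RRM1, the large subunit, gave 8.88, 8.75 and 8.47 at 0 µM, 9.61, 9.55 and 9.71 at 5 µM, and 9.40, 10.12 and 9.71 at 10 µM. Both RRM genes were above the vehicle on every treated array. RRM2 changed by 1.20 ± 0.20 (adjusted p = 0.00223) and 1.06 ± 0.20 (adjusted p = 0.00494), and RRM1 by 0.92 ± 0.18 (adjusted p = 0.00574) and 1.04 ± 0.18 (adjusted p = 0.00399). At 10 µM, RRM1 was 0.93 without 0 µM replicate 3 and 0.85 without 10 µM replicate 2, and RRM2 was 0.89 without either, so these calls rested on single arrays. TK1, the thymidine kinase of the salvage route, rose by 0.74 ± 0.18 (adjusted p = 0.0145) at 5 µM and had 0.25 ± 0.18 (adjusted p = 0.314) at 10 µM. UNG had values of 9.25, 9.46 and 9.30 at 0 µM, 9.18, 9.28 and 9.18 at 5 µM, and 9.29, 9.64 and 9.44 at 10 µM, with no difference past the test.

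Histone and fork genes were mixed. CHAF1B, a subunit of the chaperone that places histones behind the fork, gave 4.69, 4.78 and 4.90 at 0 µM, 5.80, 5.44 and 5.86 at 5 µM, and 6.73, 6.32 and 6.65 at 10 µM. The vehicle arrays were all below the floor, and the 3 doses were apart. CHAF1B was at least 1.47-fold higher at 5 µM (adjusted p = 0.00228) and at least 2.68-fold higher at 10 µM (adjusted p = 0.000182). CHAF1A, its large partner, changed by 0.26 ± 0.15 (adjusted p = 0.214) and 0.52 ± 0.15 (adjusted p = 0.0284), on a probe set of the _x_at kind. Its other probe set that reached the floor differed by 0.55 and 1.01, with both doses apart from the vehicle. SLBP, which binds histone mRNA in S phase, rose by 0.48 ± 0.14 (adjusted p = 0.0289) and 0.52 ± 0.14 (adjusted p = 0.0227). DTL, the adaptor that marks CDT1 for destruction in S phase, gave 6.24, 5.54 and 6.43 at 0 µM, 7.38, 7.53 and 7.54 at 5 µM, and 7.66, 8.34 and 7.95 at 10 µM. Its doses did not overlap, and it changed by 1.41 ± 0.24 (adjusted p = 0.00269) and 1.91 ± 0.24 (adjusted p = 0.000906). TIPIN, which steadies the fork together with TIMELESS, had 0.16 ± 0.17 at both doses (adjusted p = 0.522 and 0.488). CLSPN, an adaptor of the replication checkpoint, had signals of 2.91 to 4.0 at 0 µM, 4.44 to 4.95 at 5 µM and 4.78 to 4.98 at 10 µM, all below the floor. With the floor taken away CLSPN was called at both doses, but values below the floor were not used for a fold here. Its other probe sets, also below the floor, did not share a direction at 5 µM, with differences of -0.01, 1.61 and -2.87.

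The direct comparison of 10 µM with 5 µM asked which members went on changing. TYMS was the 1 member called, at 1.03 ± 0.13 (adjusted p = 0.00329), and 0 were called lower, where 0.264% of all tested genes were called higher and 2.08% lower. The TYMS call was lost at 0.95 without 5 µM replicate 3 and at 0.98 without 10 µM replicate 1 or 3. By adjusted p alone 10 members were higher and 1, CDC6, was lower, where 6.93% of all tested genes were higher and 8.92% lower. The 10 were CDT1, CHAF1B, MCM4, MCM5, MCM6, MCM7, POLD3, PRIM1, RFC4 and TYMS, so that 4 of the 6 ring subunits were among them. Other probe sets of the ring subunits that reached the floor varied in this step. For MCM4 they differed by 0.02, with overlap, and by 1.06, against 0.64 for the tested one. For MCM7 the other one differed by 0.17, with overlap, against 0.39. MCM6 had a log2 fold change of 0.99 ± 0.17 (adjusted p = 0.00948), just under 2-fold, and CHAF1B had 0.87 ± 0.15 (adjusted p = 0.009). MCM5 followed at 0.71 ± 0.20 (adjusted p = 0.0423), MCM4 at 0.64 ± 0.14 (adjusted p = 0.0192) and CDT1 at 0.55 ± 0.14 (adjusted p = 0.0331). The other 4 lay between 0.39 and 0.54. All 3 arrays at 10 µM lay above those at 5 µM for 19 members and below them for 3, beside 17.3% and 18.6% of all tested genes. The median of the members was 0.24, against -0.01 for all genes. Of the 45 members 30 had means that climbed in the order 0, 5 and 10 µM, as did 19.8% of all tested genes. Another 14 had their highest mean at 5 µM with 10 µM above 0 µM, as did 2565 of the 11756 tested genes. The second kind included CCNE1, CCNE2, E2F8 and CDC25A, whose differences between 10 and 5 µM of -0.26, -0.13, -0.02 and -0.69 did not pass the test.

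Genes of mitosis moved differently at the higher dose. None of 33 tested G2/M genes was higher at 10 µM than at 5 µM, 16 were called lower, 26 were lower by adjusted p, and the list's median was -1.05. Of all tested genes 2.08% were called lower and 8.92% were lower by adjusted p. HMMR, a spindle protein gene, had a log2 fold change of -1.90 (adjusted p = 0.00478), BIRC5, which encodes survivin, -1.61 (adjusted p = 0.00546), TPX2, a spindle assembly factor, -1.53 (adjusted p = 0.00597), and CCNB2, cyclin B2, -1.52 (adjusted p = 0.00291). Against 0 µM the list's median was 0.39 at 5 µM, with 2 called higher, and -0.50 at 10 µM, with 11 called lower. These were 6.06% and 33.3% of the list, beside 8.59% called higher and 1.5% called lower among all tested genes. The 2 at 5 µM were CDK1, the mitotic kinase, at 1.13 (adjusted p = 0.000887) and KIF23, a cytokinesis motor, at 1.04 (adjusted p = 0.00518). At 10 µM, CCNB2 was at -1.82 (adjusted p = 0.000316), DLGAP5 at -1.50 (adjusted p = 0.00204), BIRC5 at -1.49 (adjusted p = 0.00252), and PTTG1 at -1.30 (adjusted p = 0.00176). Every one of the 33 had a lower mean at 10 µM than at 5 µM, also after quantile normalization and with equal array medians. The actin difference between 3′ and 5′ also varied between these doses. With it as a covariate 12 of all 11756 genes were called lower between 10 and 5 µM, in place of 245. Dose and RNA quality cannot be told apart in that fit, and the part of RNA quality in the fall of the G2/M genes was not tested.

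**Figure D4:**
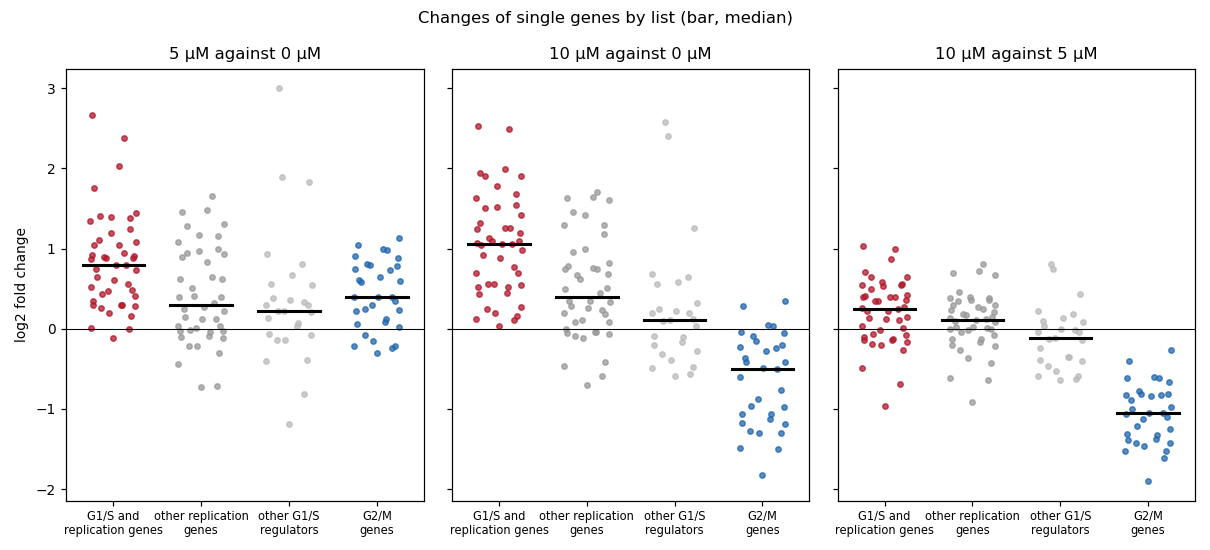
Log2 fold change (y axis) of single tested genes in 3 comparisons (panels) for the 45 G1/S and replication genes, 44 other replication genes, 27 other G1/S regulators and 33 G2/M genes. Horizontal bars are medians, which for the first and last list are 0.79 and 0.39 at 5 µM against 0 µM, 1.06 and -0.50 at 10 µM against 0 µM, and 0.24 and -1.05 at 10 µM against 5 µM.

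Other replication genes, outside the 48, changed less as a list. Of 44 tested, 9 (20.5%) were called higher and 0 lower at each dose against 0 µM. Of all tested genes 8.59% and 6.08% were called higher. The adjusted p alone gave 19 higher and 4 lower at 5 µM, and 22 higher and 4 lower at 10 µM. The lower ones were 9.09% of the list at each dose, beside 13.3% of all tested genes. POLD2 was at -0.71 (adjusted p = 0.00138) at 5 µM and -0.7 (adjusted p = 0.00206) at 10 µM. DUT was at -0.73 (adjusted p = 0.00135) at 5 µM and 0.08 (adjusted p = 0.614) at 10 µM. The medians of the list were 0.30 and 0.40, or 0.03 and 0.12 with equal array medians. At 5 µM the largest were ASF1B, a histone chaperone, at 1.65 (adjusted p = 9.06e-05), LIG1, the ligase of Okazaki fragments, at 1.48 (adjusted p = 0.00123), TIMELESS, of the fork protection complex, at 1.45 (adjusted p = 6.58e-05), and UHRF1, which guides DNMT1 to new DNA, at 1.31 (adjusted p = 1.94e-05). At 10 µM they were LIG1 at 1.71 (adjusted p = 0.00089), CDC7, the kinase that fires origins, at 1.64 (adjusted p = 0.00031), HELLS, a remodeller needed for DNA methylation, at 1.63 (adjusted p = 0.000582), and TIMELESS at 1.60 (adjusted p = 0.000114). No gene of this list was called between 10 and 5 µM, where 8 were higher and 3 lower by adjusted p. These were 18.2% and 6.82% of the list, beside 6.93% and 8.92% of all tested genes.

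The other G1/S regulators, which include retinoblastoma proteins, inhibitors and D-type cyclins, were mixed in direction. At 5 µM 19 changes were positive and 8 negative (70.4% positive, beside 54.1% of all tested genes), or 13 and 14 with equal array medians. At 10 µM 16 were positive and 11 negative (59.3%, beside 54.0%). By adjusted p alone 8 were higher and 3 lower at 5 µM (29.6% and 11.1%, beside 20.2% and 13.3%). At 10 µM these were 7 and 5 (25.9% and 18.5%, beside 19.8% and 13.3%). Of 27 tested, 3 (11.1%) were called higher and 1 lower at 5 µM, and 3 (11.1%) higher and 0 lower at 10 µM. Over all tested genes 8.59% were called higher and 1.32% lower at 5 µM, and 6.08% and 1.5% at 10 µM. The medians of the list were 0.22 and 0.11, or -0.04 and -0.17 under equal array medians. E2F7, a repressor of E2F targets, was higher by 1.89 (adjusted p = 1.74e-05) at 5 µM and 1.26 (adjusted p = 0.000288) at 10 µM. MYBL2, a transcription factor between S phase and mitosis, and RBL1, the pocket protein p107, were under the floor throughout the vehicle group. MYBL2 was at least 2.17-fold higher (adjusted p = 0.00121) at 5 µM and at least 1.44-fold higher (adjusted p = 0.00444) at 10 µM, and RBL1 at least 2.02-fold (adjusted p = 0.000343) and 3.39-fold (adjusted p = 0.000139). The MYBL2 limit at 10 µM was under 2-fold, so its call at that dose rested on measured vehicle values below the floor. MYC, a driver of growth and of the cell cycle, had a log2 fold change of -1.19 (adjusted p = 0.000234) at 5 µM and -0.39 (adjusted p = 0.0447) at 10 µM.

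Different probe sets of a gene gave a check within the arrays. The 48 genes had 94 probe sets, 19 genes had 1 and 29 had several, and 21 of the 46 that did not stand for their gene reached the floor. A probe set counted if it reached the floor on all 3 arrays of any group, so some passed only through treated arrays, where they were high. At 5 µM these included the second ones of CDC25A, GINS3 and MCM10, with vehicle means of 2.07, 3.92 and 3.15. For such probe sets a higher treated signal was partly built into the choice. All 21 had the sign of their gene's tested probe set in both comparisons with 0 µM. Of those of called genes, 7 of 7 differed by more than 2-fold at 5 µM and 5 of 10 at 10 µM, where FEN1, MCM4, RRM1, RRM2 and TYMS had a second probe set under 2-fold. Between 10 and 5 µM, 17 of 21 shared the sign, and the second probe sets of E2F1, MCM10, POLA2 and RRM1 had the opposite one. The second TYMS probe set differed by 0.51 between these doses, against 1.03 for the tested one, and the second FEN1 probe set by 0.68 at 10 µM against 0 µM.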

How the data were processed

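Total RNA of 9 HT-29 cultures, 3 per dose, had been hybridised to 1 Affymetrix U133 Plus array each, and each group follows its label. The authors deposited log2 signals of 54675 probe sets. Their processing notes give RMA and affy 1.14.2, but the values have the form of MAS 5.0 signals (log2 of multiples of 0.1, a 2% trimmed mean of 250.0 on each array), scaled by 1 factor per array and not quantile normalized, so that dim genes are noisy. A further 6 probe sets with a missing value were left out. Array medians were 5.07 to 5.52, and 3 arrays per group limit the precision.

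The 41091 probe sets with 1 gene in the platform table were named with current RefSeq symbols, and the brightest probe set on average stood for the gene. The floor was the median signal of the array, and genes at or above it on all 3 arrays of any group entered the test. The test was limma 3.58.1 (lmFit, eBayes, R 4.3.3) on all 9 arrays, with Benjamini-Hochberg adjustment over all tested genes, two-sided, and the thresholds for calls (adjusted p up to 0.05, over 2-fold) are those of the study. A fold written as at least used vehicle values raised to the floor, while calls used the values as measured. In simulated data of the comparison of 5 µM with 0 µM (11756 genes), 79 of 100 genes changed 2.5-fold and 1 of 100 changed 1.5-fold were called, with 3 false calls.

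The members and the lists of other genes and markers were chosen with earlier results of these data known. Named were every called member, the smallest change at 5 µM in each role group, members with probe sets of opposite direction, and up to 4 called genes per other list and comparison. The alternatives were 2 other filters on low signals, 2 other choices of probe set, quantile normalization, equal array medians, fits of 2 groups, a block for the replicate number, the methods' t-test, eBayes with trend and robust, array weights, the actin covariate, no fold threshold and leaving out arrays. Promoters came from RefSeq (GRCh38.p14). Figures were drawn with matplotlib 3.10.9. RNA-Seq of these cultures was not used here.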

Additional observations from a re-analysis of the deposited data

Results flagged for a closer look

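Between 10 and 5 µM the change of 11 members passed the adjusted p of limma. With the actin difference as a covariate 0 of the 45 passed it (11 at an unadjusted p under 0.05), and dose and RNA quality cannot be told apart in that fit. The log2 fold changes of 10 µM against 5 µM were 0.99 for MCM6, 0.71 for MCM5, 0.64 for MCM4 and 0.39 for MCM7, subunits of the helicase ring. They were 1.03 for TYMS and 0.87 for CHAF1B, and 0.55 for CDT1. PRIM1 had 0.54, POLD3 had 0.41 and RFC4 had 0.40. CDC6, at -0.96, was the 1 of these 11 that fell.

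The log2 difference between 3′ and 5′ control probe sets, of which the actin one served the tests of genes only as the covariate above, was higher at 10 µM than at 0 µM by 0.90 for actin and by 0.38 for GAPDH.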

How the results depend on the processing

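Single calls of members (40 of them) were recomputed in 852 alternatives, of which 751 kept the call, 101 lost it and 0 turned the direction. An alternative in which the gene was no longer tested was not counted, such as ORC6 without _x_at and _s_at probe sets. The 852 include fits without an array of the dose outside the comparison, which keep the fold change as it was. At 5 µM against 0 µM, 15 members were called higher, and 9 without _x_at and _s_at probe sets (30 tested), 9 with equal array medians and 33 with no fold threshold. Their median of 0.79 was 0.88 with the mean of the probe sets, 0.62 after quantile normalization and 0.53 with equal medians. At 10 µM against 0 µM, 24 became 12 without _x_at and _s_at probe sets, 14 with equal medians and 0 with the actin covariate. Their median of 1.06 was 0.96 with the mean of the probe sets, 0.90 without _x_at and _s_at, 0.92 after quantile normalization, 0.79 with equal medians, 1.16 with the actin covariate and 0.93 without 10 µM replicates 2 and 3, and ranged from 0.93 to 1.14 when 1 array was left out. At 10 µM against 5 µM, 1 higher call became 2 after quantile normalization, 0 with the actin covariate, 3 without 10 µM replicates 2 and 3, 10 with no fold threshold, and 0 to 2 with 1 array left out. The 0 lower calls became 1 without _x_at and _s_at probe sets, 1 without 10 µM replicates 2 and 3, 1 with no fold threshold, and 0 to 1 with 1 array left out. The median of 0.24 was 0.13 without 10 µM replicates 2 and 3 and 0.16 to 0.32 with 1 array left out. Leaving out 1 array gave 13 to 17 calls at 5 µM and 21 to 26 at 10 µM. Samples of the same number did not deviate together (correlations of -0.089 to 0.179), and the replicate block gave 15, 24 and 1 calls in the 3 comparisons. The cause of these differences was not tested, except that fewer genes or arrays entered where they were left out. Signals near the floor, as for MCM10 and CHAF1B in the vehicle, limit what can be said of size.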
